A study of Mus musculus with 74 samples.

Results

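Ccng2, Btg1, Btg2, Tob1 and Cdkn1b are antiproliferative genes linked to the resting state of lymphocytes, and their RNA was followed over the 11 sample groups of a mouse T cell array series. The 5 genes were chosen with measured values of this series known, in particular those of Ccng2, which moves in opposite directions in the empty-virus sets and is low after stimulation. Each gene had 1 probe among the 16463 probes of each array, and the platform annotation gave 13409 distinct gene symbols in all. Because the selection used Ccng2, its hybridoma and peptide values are given as a description with no test, and its only tested contrast is the one between DO11.10 and mhc -/- thymocytes.

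The series held 74 2-colour arrays of RNA from DO11.10 cells, a mouse T cell hybridoma that carries a receptor for an antigenic peptide, and from total thymocytes. In the hybridoma, 10 arrays carried RNA of cells transduced with HDAC7-VP16, 8 of cells transduced with MSCV HDAC7 DP and treated with PMA and ionomycin for 2.5 h, 8 of cells with the empty virus MSCV and the same treatment, 4 of cells with MEF2D-VP16, 4 of cells with MSCV Nur77, and 4 and 12 of cells with empty MSCV in separate sets. Untreated DO11.10 hybridoma cells were the second RNA on each of these 50 arrays, and the labels name no virus for the untreated cells. In thymocytes, 6 arrays set DO11.10 T cell receptor transgenic animals against mhc -/- animals, and 6 arrays each set DO11.10 animals injected with antigenic peptide 3 h, 6 h or 12 h earlier against uninjected DO11.10 animals. HDAC7-VP16 and MEF2D-VP16 are named as fusions with VP16, a viral activation domain, while the meaning of DP, the number of clones or animals behind an RNA, and the animals' strain, sex and age were not stated in the labels. The hybridoma is a tumour-derived dividing line, and the constructs came from a retrovirus and not from the cells' own promoters.

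BTG and TOB proteins share an N-terminal domain that binds the CCR4-NOT deadenylase, the enzyme complex that shortens the poly(A) tails of messenger RNAs. BTG1 and BTG2 are known to keep naive T cells quiescent by lowering messenger RNA abundance, and TOB1 is known as a negative regulator of T cell proliferation. Cdkn1b encodes p27, an inhibitor of cyclin-dependent kinases that holds cells before S phase, and Ccng2 encodes cyclin G2, an unconventional cyclin that is associated with cell cycle exit. FoxO transcription factors, which act in cells with low PI3 kinase signalling, are known to activate Ccng2 and Cdkn1b, and Btg1 and Tob1 have been linked to them as well. In the thymus, signals through the T cell receptor decide whether a thymocyte is deleted or matures, and mature thymocytes leave the cell cycle.

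RefSeq promoter windows of 300 bases on GRCm38.p6, 250 before and 50 from the annotated start on, were found for all 5 genes. The Tob1 window lies wholly inside the gene span given below, so its start is not the outermost start of that span. Windows of Ccng2, Btg1 and Tob1 are shown because their RNA carries most of the contrasts below, and that of Cdkn1b because it was the only one of the 5 with a MEF2 motif. Capitals mark letters that matched a searched motif on either strand.
Ccng2, chr5:93267323-93267622, plus strand: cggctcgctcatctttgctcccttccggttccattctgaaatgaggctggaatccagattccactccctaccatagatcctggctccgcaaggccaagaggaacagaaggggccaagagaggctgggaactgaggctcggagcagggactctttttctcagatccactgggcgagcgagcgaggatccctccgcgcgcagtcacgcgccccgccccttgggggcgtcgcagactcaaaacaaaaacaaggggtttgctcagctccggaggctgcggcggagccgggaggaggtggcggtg
Btg1, chr10:96616751-96617050, plus strand: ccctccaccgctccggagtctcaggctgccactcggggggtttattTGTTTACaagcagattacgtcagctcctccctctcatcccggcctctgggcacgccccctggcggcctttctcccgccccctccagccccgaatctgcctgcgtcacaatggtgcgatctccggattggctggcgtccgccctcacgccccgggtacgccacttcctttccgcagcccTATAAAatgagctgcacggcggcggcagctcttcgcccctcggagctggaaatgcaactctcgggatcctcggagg
Tob1, chr11:94211204-94211503, plus strand: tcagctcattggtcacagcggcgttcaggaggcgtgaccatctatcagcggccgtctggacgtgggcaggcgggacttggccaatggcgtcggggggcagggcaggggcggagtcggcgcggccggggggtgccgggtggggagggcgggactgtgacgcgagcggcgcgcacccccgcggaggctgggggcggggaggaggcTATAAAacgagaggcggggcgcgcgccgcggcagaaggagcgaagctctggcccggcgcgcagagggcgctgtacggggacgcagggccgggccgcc
Cdkn1b, chr6:134920151-134920450, plus strand: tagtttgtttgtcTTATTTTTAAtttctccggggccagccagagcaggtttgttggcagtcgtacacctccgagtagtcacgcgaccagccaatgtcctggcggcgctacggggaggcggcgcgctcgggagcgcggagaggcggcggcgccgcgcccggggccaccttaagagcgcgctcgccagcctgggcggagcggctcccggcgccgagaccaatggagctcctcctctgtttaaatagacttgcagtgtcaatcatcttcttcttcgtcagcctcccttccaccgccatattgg
The motifs searched were the forkhead motif GTAAACA, the cyclic AMP response element TGACGTCA, the Nur77-binding element AAAGGTCA, TATAAA, and the MEF2 motif, which is given by name. Over 32851 mouse promoter windows of this length 3.65% held the forkhead motif, 1.79% the cyclic AMP response element, 1.51% the Nur77-binding element, 13.62% TATAAA and 3.19% the MEF2 motif. Btg1 matched the forkhead motif on the opposite strand from position -204 to -198 and TATAAA from -26 to -21, where the start base counts as 0. Tob1 matched TATAAA from -47 to -42, Cdkn1b the MEF2 motif from -237 to -228, Btg2 the cyclic AMP response element from -166 to -159, and the Ccng2 window none of the 5 motifs. The matched motifs do not overlap one another, and a match describes these letters and is no measured site.

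The genes lie on separate chromosomes in that RefSeq annotation: Ccng2 at chr5:93267573-93276231, Btg1 at chr10:96617001-96622813, Btg2 at chr1:134074865-134079155, Tob1 at chr11:94209842-94215495 and Cdkn1b at chr6:134920401-134925525. Probe sequences were not used here, so the exon a probe reads is not given.

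All values are log2 ratios of the construct, stimulus or peptide RNA over its partner on the same array, after each array was centred on its median. A ratio gives no absolute level, so a gene's ratio is compared between groups and not with another gene's abundance. A gene is called changed where limma's Benjamini-Hochberg adjusted p over all 16463 probes was under 0.05. The labels do not say whether arrays of a group hold RNA of separate cultures or animals, so a p-value here reflects array-to-array spread, possibly only technical. As a check of the labels, Nr4a1, the gene of Nur77, stood at 3.18 to 6.12 on the 4 Nur77 arrays and at 3.09 to 5.52 on the 8 stimulated empty-virus arrays. The DO11.10 to mhc -/- ratio is likely DO11.10 over mhc -/-, since B2m, the light chain of MHC class I, stood at 2.97 to 3.70 on its 6 arrays and the class II gene H2-Ab1 at 2.01 to 2.95. By the titles, both dye orientations were equally frequent in every group. Of the 12 empty-virus arrays, replicate 3 correlated over all probes at -0.58 to -0.32 with the other 5 arrays of its labelled orientation, and replicate 9 at -0.52 to -0.19 with its own 5. With arrays of the opposite label, replicate 3 correlated at -0.47 to 0.59 and replicate 9 at -0.47 to 0.67. Neither the direction nor the dye label of these 2 arrays is thus settled. Their Ccng2 ratios as deposited were positive like those of the other 10 arrays. With both signs turned, the Ccng2 difference from the 12-array set was -1.71 for HDAC7-VP16, -2.31 for stimulated empty virus and -2.78 for the 4-array empty virus, and the calls of Tob1 (limma adjusted p = 0.0452) and Cdkn1b (0.0307) in stimulated cells were kept. Both calls were also kept with the 2 arrays left out (limma adjusted p = 0.0336 for Tob1 and 0.04695 for Cdkn1b).

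At least 1 of the 4 genes other than Ccng2 was called in 8 of the 13 comparisons, and MEF2D-VP16 and stimulation each changed 2 of them. With MEF2D-VP16 over the 4-array empty virus, Btg1 and Tob1 rose, where 12.6% of all probes were called. With PMA and ionomycin over the 12-array empty virus, Tob1 and Cdkn1b rose, where 12.5% of all probes were called. With Nur77 over the 4-array empty virus, 1 of 4 rose, Btg1, beside 6.91% of all probes. In the 4-array empty virus over untreated cells 1 of 4 fell, Btg1, beside 5.72% of all probes. Between DO11.10 and mhc -/- thymocytes, where 36.3% of all probes were called, Ccng2 and Tob1 rose, which is 2 of 5 and close to that share.

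After peptide, 1 of 4 was called at each time: Tob1 fell at 3 h (2.71% of all probes called), and Btg1 rose at 6 h (4.57%) and at 12 h (3.38%). None of the 4 was called, at limma's adjusted p, with HDAC7-VP16 over the 12-array empty virus (2.72% of all probes), with HDAC7 DP over empty virus in stimulated cells (1.65%), in the 12-array empty virus over untreated cells (1.97%), between the empty-virus sets (2.53%) or between the 3 peptide times (4.09%). At an unadjusted p under 0.05, Btg1 (p = 0.00512) and Cdkn1b (p = 0.0183) passed between the empty-virus sets, and 0 of 4 passed in each of the other 4 comparisons of that sentence. The heat map of log2 changes sets these values side by side.

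**Figure D1:**
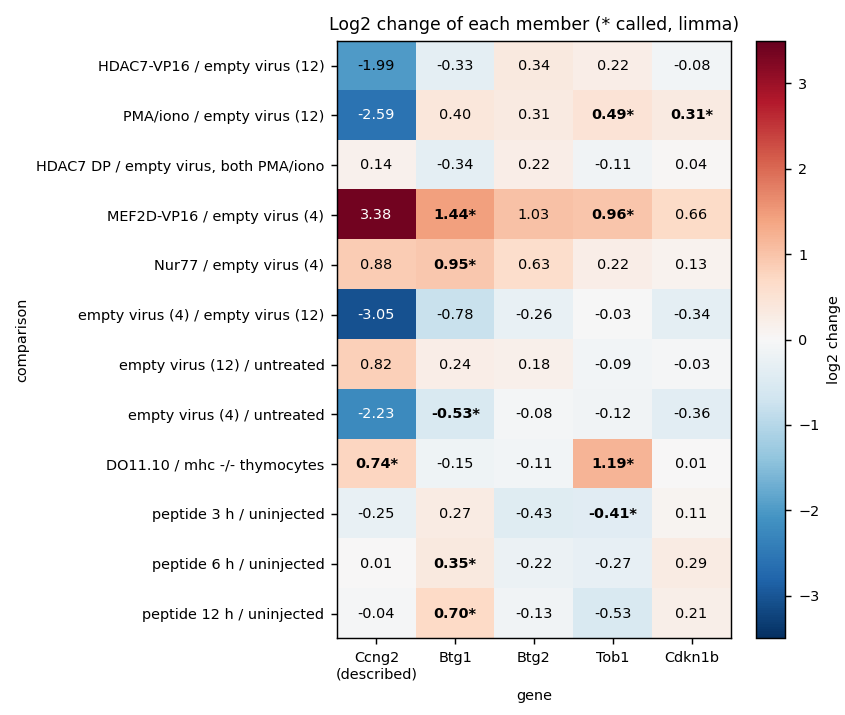
Log2 change of each gene (columns) in 12 comparisons (rows), with colour and printed number giving the log2 change and an asterisk marking a call by limma at an adjusted p under 0.05. Ccng2 is described without a test except in DO11.10 over mhc -/- thymocytes. The strongest colours are in the Ccng2 column, at 3.38 for MEF2D-VP16 over the 4-array empty virus and -3.05 between the empty-virus sets.

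Ccng2 spanned the widest range of the 5 genes in its group means. The means were 1.15 ± 0.26 with MEF2D-VP16 (SD, n = 4), 0.82 ± 0.21 in the 12-array empty virus (n = 12) and 0.74 ± 0.16 in DO11.10 over mhc -/- thymocytes (n = 6), and the arrays of neighbouring groups in that order overlapped. The peptide groups lay near 0, at -0.25 ± 0.16 after 3 h, 0.01 ± 0.15 after 6 h and -0.04 ± 0.24 after 12 h (n = 6 each), and their highest array (0.27) stayed below the lowest DO11.10 over mhc -/- array (0.48). The lowest means were those of HDAC7-VP16 at -1.16 ± 1.05 (n = 10), Nur77 at -1.35 ± 0.46 (n = 4), HDAC7 DP with stimulation at -1.62 ± 0.51 (n = 8), empty virus with stimulation at -1.76 ± 0.50 (n = 8) and the 4-array empty virus at -2.23 ± 0.23 (n = 4). HDAC7-VP16 arrays ran from -2.36 to 0.57 and so overlapped with the peptide groups and the 12-array empty virus. Each neighbouring pair from 6 h after peptide downwards overlapped, so the order of neighbours is not resolved by the arrays. The lowest peptide array (-0.45) still lay above every array of Nur77 (highest -0.99) and of stimulated empty virus (-1.06). It also lay above every array of HDAC7 DP with stimulation (-1.08) and of the 4-array empty virus (-1.97).

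**Figure D2:**
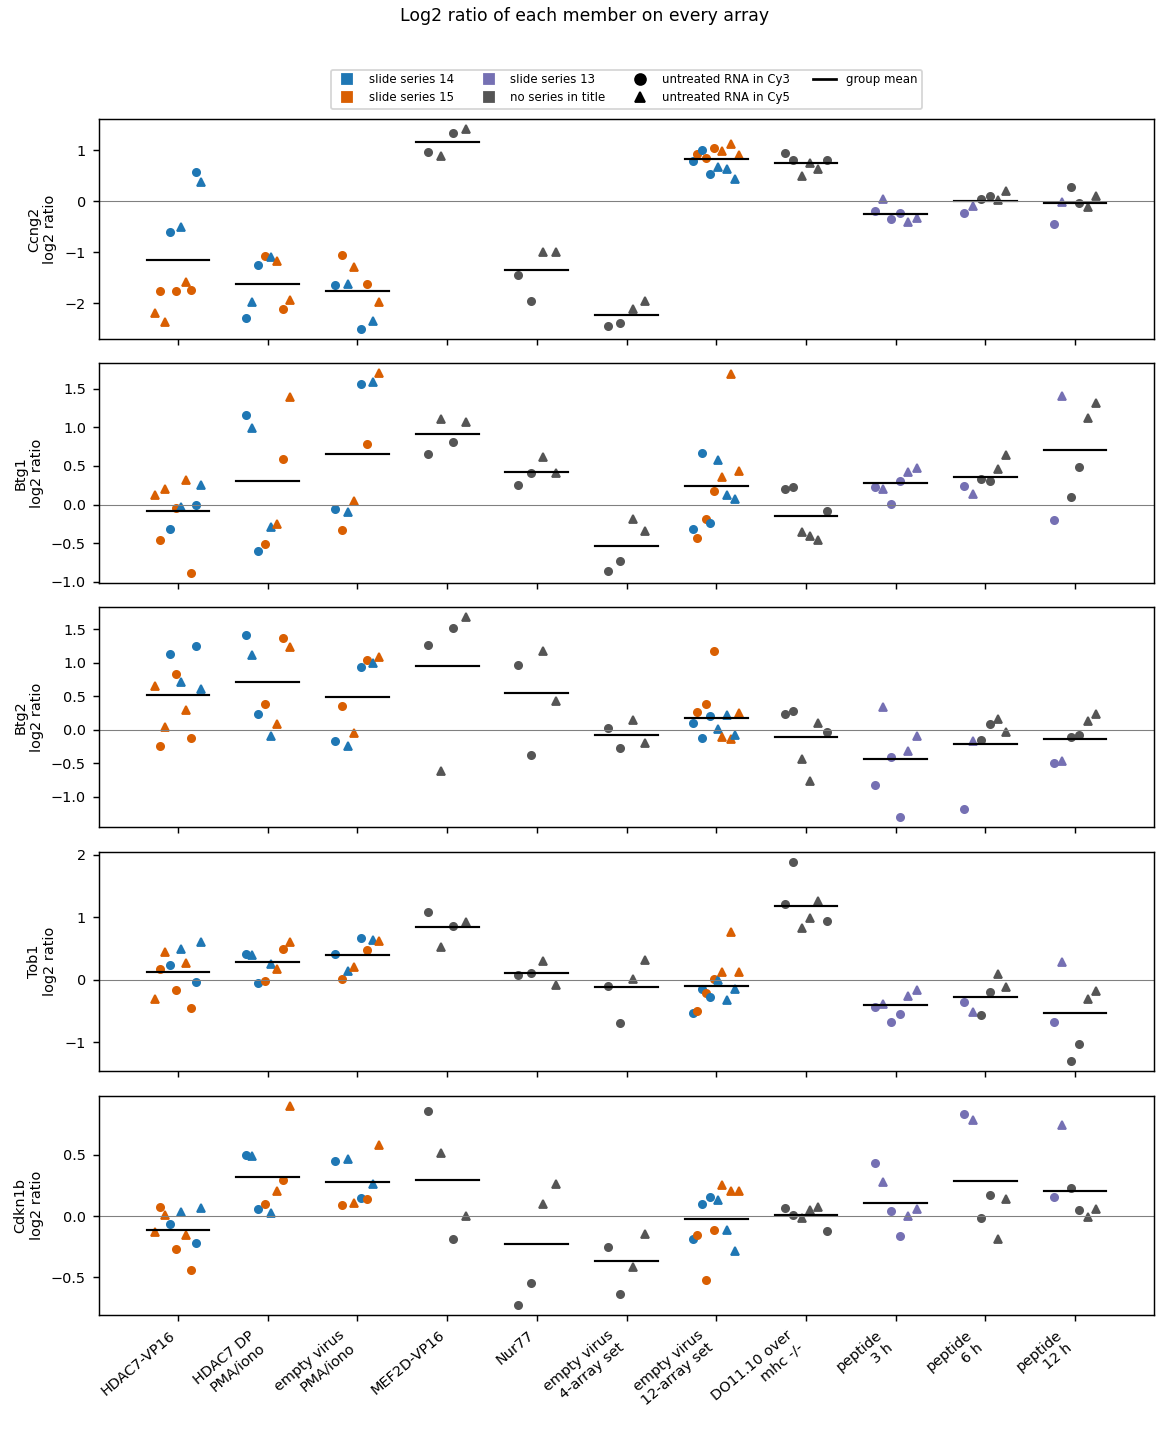
Log2 ratio (vertical axes) of Ccng2, Btg1, Btg2, Tob1 and Cdkn1b on every array of the 11 groups (horizontal axis), with 1 point per array, colour for the slide series named in the titles, circles for the untreated, uninjected or DO11.10 RNA in Cy3, triangles for it in Cy5, and bars for group means. Ccng2 lay above 0 on all 12 arrays of the larger empty-virus set and below 0 on all 4 of the smaller one, while most groups of the other genes straddle 0.

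The empty-virus sets stood on opposite sides of untreated cells for Ccng2. It had -2.45, -2.39, -2.11 and -1.97 on the 4 arrays of the smaller set, against 0.43 to 1.12 with a median of 0.87 on the 12 arrays of the larger set. The sets did not overlap, and the log2 difference between them was -3.05 (SE 0.13), an 8.30-fold lower ratio in the 4-array set. Both sets carry the same label, empty MSCV, and untreated hybridoma cells were the partner in both. What differed between the sets besides the slides was not given by the labels, and its part in the difference was not tested.

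Contrasts of Ccng2 with a construct depend on which empty virus is the control. With MEF2D-VP16 its arrays read 0.97, 0.88, 1.34 and 1.41, all above every array of the 4-array empty virus, a log2 difference of 3.38 (SE 0.16), or 10.4-fold. Against untreated cells the same arrays averaged 1.15, and with both empty-virus sets joined (16 arrays) as control the difference was 1.09 (SE 0.67). With Nur77 Ccng2 read -1.45, -1.95, -0.997 and -0.992, again above every array of the 4-array empty virus (log2 difference 0.88, SE 0.14). Against untreated cells, by contrast, Nur77 arrays averaged -1.35, and with both empty-virus sets joined (16 arrays) as control the difference was -1.41 (SE 0.67), so its direction turned with the control.

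HDAC7-VP16 arrays split by slide series for Ccng2. The 6 arrays of slide series 15 ran from -2.36 to -1.59 with a mean of -1.91 ± 0.30, and the 4 of slide series 14 read -0.62, -0.52, 0.57 and 0.37. The 2 positive arrays were slides 11 and 12 of series 14, while slides 11 and 12 of series 15 stood at -1.77 and -2.36 under the same construct label. Over the 12-array empty virus, whose Ccng2 means were 0.97 in series 15 and 0.68 in series 14, the log2 difference was -1.99 (SE 0.30) with all arrays, -2.88 within series 15 and -0.72 within series 14. The ranges overlapped with all arrays, since slide 11 of series 14 (0.57) exceeded the lowest empty-virus array (0.43). Replicate 1 of HDAC7-VP16 has a source name that gives the empty virus, and its Ccng2 ratio of -2.20 was among the low HDAC7-VP16 values; without it the difference was -1.87.

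**Figure D3:**
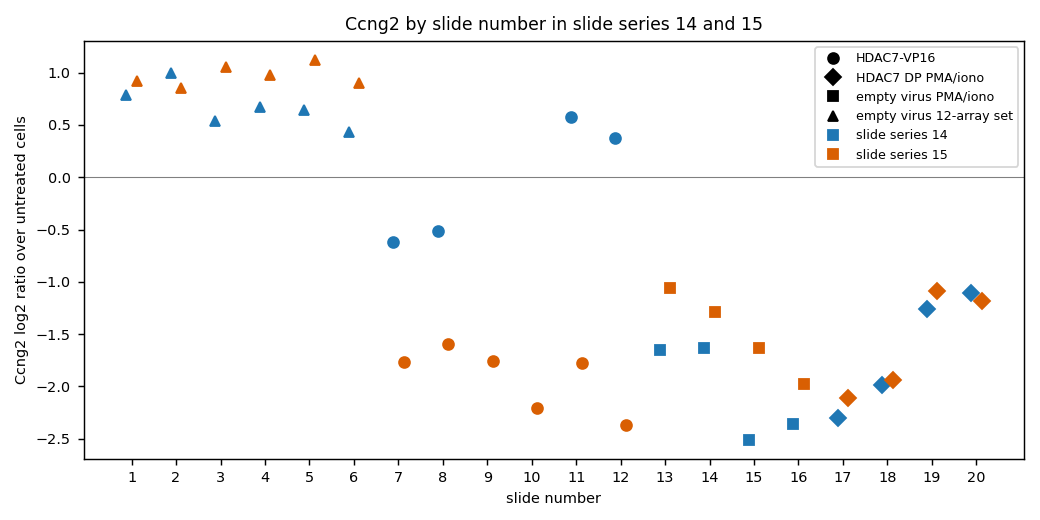
Ccng2 log2 ratio over untreated cells (vertical axis) against slide number (horizontal axis) in slide series 14 (blue) and 15 (orange), with 1 point per array and the marker shape for the group. Slides 1 to 6 of the empty virus lie above 0, slides 13 to 20 of stimulated cells below -1, and slides 11 and 12 of HDAC7-VP16 lie apart between the series.

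Stimulated cells had low Ccng2 whichever construct they carried. The 8 HDAC7 DP arrays ran from -2.30 to -1.08 with a median of -1.60, and the 8 stimulated empty-virus arrays from -2.51 to -1.06 with a median of -1.64, so the ranges lay almost on each other (log2 difference 0.14, SE 0.24). Stimulated empty-virus arrays stood below all 12 unstimulated arrays of the larger set, with a mean log2 difference of -2.59 (SE 0.16, a 6.01-fold lower ratio). The 4-array unstimulated empty virus, at -1.97 to -2.45, lay inside the range of stimulated cells. Within constructs Ccng2 differed by slide pair. HDAC7 DP slides 17 and 18 averaged -2.08 ± 0.16 while slides 19 and 20 averaged -1.16 ± 0.08. Among empty-virus slides, 13 and 14 averaged -1.41 ± 0.29 while 15 and 16 averaged -2.12 ± 0.39 (SD, n = 4 each).

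In thymocytes Ccng2 was higher in DO11.10 than in mhc -/- animals. The 6 arrays ran from 0.48 to 0.95 with a median of 0.78, and all 6 were above 0 in both dye orientations. The mean of 0.74 (SE 0.05) was called by limma (adjusted p = 3.242e-05), a 1.67-fold rise. After peptide the ratios ran from -0.42 to 0.03 at 3 h, from -0.23 to 0.20 at 6 h and from -0.45 to 0.27 at 12 h. The lowest 6 h and 12 h arrays were both on slides of series 13, which held all 6 arrays of 3 h. The titles give slides 5 and 6 of series 13 to both 3 h and 6 h, and slides 7 and 8 to both 3 h and 12 h, so these slide names do not tell the times apart, and whether they are the same glass slides is not stated.

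Btg1 rose with MEF2D-VP16 and with Nur77 over the 4-array empty virus. It read 0.66, 1.11, 0.82 and 1.07 with MEF2D-VP16, against -0.86, -0.73, -0.19 and -0.34 in the 4-array empty virus. All 4 MEF2D-VP16 arrays were above all 4 empty-virus arrays, and Btg1 rose 2.72-fold (1.44, SE 0.11, limma adjusted p = 8.308e-05). Against untreated cells Btg1 was also called with MEF2D-VP16 (0.91, limma adjusted p = 9.235e-04), and with both empty-virus sets joined (16 arrays) as control the value was 0.86 (adjusted p = 0.0437). With Nur77 Btg1 read 0.25, 0.41, 0.62 and 0.41, again above every array of the 4-array empty virus, a 1.94-fold rise (0.95, SE 0.12, limma adjusted p = 8.331e-04).

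The 4-array empty virus itself stood below untreated cells. There Btg1 fell (-0.53, SE 0.08, limma adjusted p = 0.00955; below 0 on 4 of 4 arrays). That call was lost without replicate 4 of the set (-0.49, adjusted p = 0.0536) and without a dye term (adjusted p = 0.354). Nur77 against untreated cells kept the Btg1 call at 0.42 (limma adjusted p = 0.0258), whereas with both empty-virus sets joined (16 arrays) as control it was 0.37 (adjusted p = 0.577). The 12-array empty virus ran from -0.43 to 1.69 with a median of 0.15 for Btg1, a range that holds all 4 Nur77 arrays. With HDAC7-VP16 Btg1 ran from -0.89 to 0.31 with a median of -0.02, within or near the range of that set (-0.33, SE 0.17, limma adjusted p = 0.426).

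In stimulated cells Btg1 followed slide pairs and not constructs. HDAC7 DP slides 17 and 18 had a Btg1 mean of 1.03 ± 0.34, while slides 19 and 20 had -0.41 ± 0.17. Empty-virus slides 13 and 14 had -0.11 ± 0.16, while 15 and 16 had 1.40 ± 0.42 (SD, n = 4 each). No array of a high pair overlapped with a low pair, and each construct had 1 high and 1 low pair. The group ranges of -0.60 to 1.39 with HDAC7 DP (median 0.17) and -0.33 to 1.70 with the empty virus (median 0.41) were therefore wide, and the log2 difference of -0.34 (SE 0.39, limma adjusted p = 0.801) was not called. Over the 12-array empty virus, stimulated empty-virus cells were 0.40 higher (SE 0.29, adjusted p = 0.470), also not called.

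**Figure D4:**
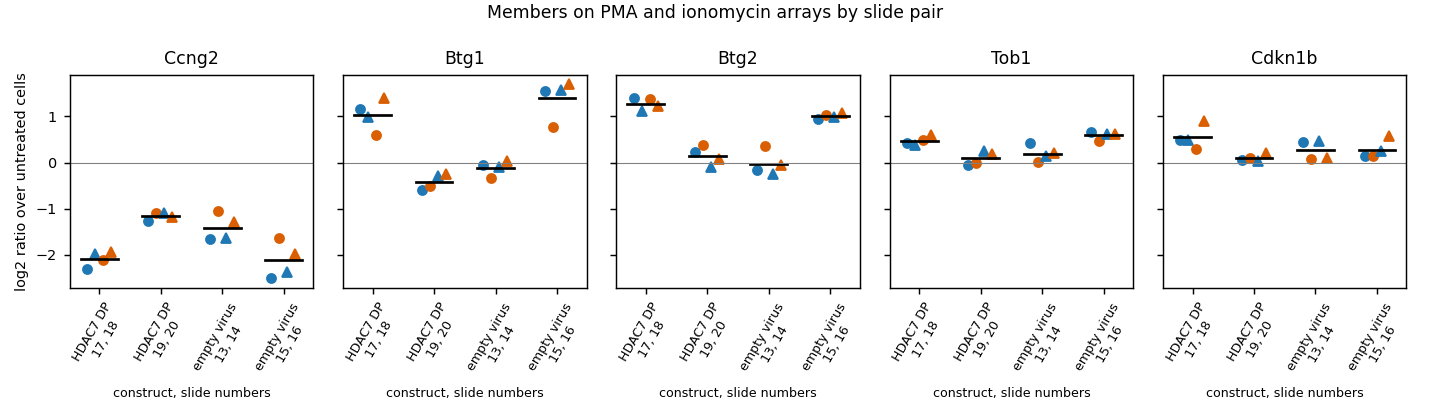
Log2 ratio over untreated cells (vertical axis) of the 5 genes on the arrays of PMA- and ionomycin-treated cells, grouped by construct and slide pair (horizontal axis), with 1 point per array, blue for slide series 14, orange for series 15, circles for untreated RNA in Cy3, triangles for Cy5 and bars for means (n = 4). Btg1 and Btg2 are high on slides 17 and 18 and on slides 15 and 16, and low on the other pairs, in both series and both dye orientations.

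Btg1 in thymocytes rose at 6 h and 12 h after peptide. It ran from 0.01 to 0.48 with a median of 0.27 at 3 h, from 0.13 to 0.64 with a median of 0.32 at 6 h, and from -0.20 to 1.40 with a median of 0.81 at 12 h. All arrays of 3 h and 6 h and 5 of 6 at 12 h were above 0. The mean log2 changes were 0.27 at 3 h (SE 0.07, limma adjusted p = 0.103), 0.35 at 6 h (SE 0.08, adjusted p = 0.0409) and 0.71 at 12 h (SE 0.10, adjusted p = 0.0231), a 1.63-fold rise at 12 h. The difference between the times was not called (limma adjusted p = 0.314). The 12 h arrays split by dye, at a mean of 0.13 with uninjected RNA in Cy3 and 1.28 in Cy5, and without a dye term the 12 h call was lost (adjusted p = 0.123). Between DO11.10 and mhc -/- thymocytes Btg1 ran from -0.45 to 0.23 (mean -0.15, adjusted p = 0.0844), with means of 0.12 and -0.41 in the dye orientations.

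Btg2, a relative of Btg1 known as an immediate early gene and a target of p53, was called in 0 of the 13 comparisons by limma. At an unadjusted p under 0.05 it passed in 3 of them, those of MEF2D-VP16 (p = 0.0351), Nur77 (p = 0.0426) and peptide at 3 h (p = 0.0118). With MEF2D-VP16 it read 1.26, -0.62, 1.51 and 1.67, against 0.03, -0.27, 0.14 and -0.20 in the 4-array empty virus. A single array, replicate 2 on slide 22, lay below all 4 empty-virus arrays, and the other 3 lay above them. The log2 difference was 1.03 (SE 0.42, limma adjusted p = 0.163), and without replicate 2 it was 1.59 (adjusted p = 8.614e-04). Slide 21, with the same construct in the other dye orientation, read 1.26.

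Nur77 arrays were divided for Btg2 in the same manner. They read 0.97, -0.37, 1.17 and 0.43, with replicate 2 the only one below 0, and the log2 difference from the 4-array empty virus was 0.63 (SE 0.27, limma adjusted p = 0.234). Without Nur77 replicate 2 it was 0.94 (adjusted p = 0.0235). With HDAC7-VP16 Btg2 ran from -0.24 to 1.25 with a median of 0.64, against -0.14 to 1.17 with a median of 0.15 in the 12-array empty virus (log2 difference 0.34, SE 0.17, adjusted p = 0.448). The HDAC7-VP16 arrays of series 14 averaged 0.92 ± 0.31 (n = 4) and those of series 15 averaged 0.24 ± 0.43 (n = 6), so series 14 held the higher Btg2 and the higher Ccng2. Over the empty-virus arrays of the same series the Btg2 difference was 0.87 in series 14 (adjusted p = 0.0900) and -0.06 in series 15 (adjusted p = 0.937).

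Btg2 in stimulated cells took the pattern of slide pairs seen for Btg1. HDAC7 DP slides 17 and 18 had a Btg2 mean of 1.28 ± 0.13, while slides 19 and 20 had 0.15 ± 0.21. Empty-virus slides 13 and 14 had -0.03 ± 0.27, while 15 and 16 had 1.01 ± 0.06 (SD, n = 4 each). The constructs differed by 0.22 (SE 0.28, limma adjusted p = 0.823), which is less than the differences between slide pairs within either construct. Against untreated cells HDAC7 DP arrays averaged 0.71, which was called (adjusted p = 0.0281), and the stimulated empty-virus arrays averaged 0.49, which was not (adjusted p = 0.123). In these fits 3234 and 2650 of all 16463 probes were called, in that order. After peptide Btg2 ran from -1.30 to 0.34 with a median of -0.36 at 3 h, from -1.18 to 0.15 with a median of -0.09 at 6 h and from -0.50 to 0.23 with a median of -0.10 at 12 h. None of these was called (limma adjusted p = 0.150, 0.521 and 0.5681, in the order of the times), and the 6 h and 12 h arrays on slides of series 13 averaged -0.67 and -0.48 beside 0.01 and 0.04 on the other slides.

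Tob1 rose with MEF2D-VP16 and was the gene with the largest thymocyte difference. With MEF2D-VP16 it read 1.08, 0.53, 0.86 and 0.92, against -0.10, -0.68, 0.01 and 0.31 in the 4-array empty virus. The groups did not overlap, and Tob1 rose 1.95-fold (0.96, SE 0.21, limma adjusted p = 0.0144). This value was nearly free of the choice of control, at 0.85 against untreated cells (adjusted p = 0.00220) and 0.95 with all 16 empty-virus arrays (adjusted p = 5.712e-04), and it was called without each of the 8 arrays in turn (0.77 to 1.12). With Nur77 Tob1 read 0.08, 0.11, 0.30 and -0.08, within the range of the 4-array empty virus (0.22, SE 0.17, adjusted p = 0.562). With HDAC7-VP16 Tob1 ran from -0.45 to 0.61 with a median of 0.20, and its difference of 0.22 from the 12-array empty virus (adjusted p = 0.521) was 0.57 within series 14 (adjusted p = 0.304) and -0.06 within series 15 (adjusted p = 0.913).

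With PMA and ionomycin Tob1 was called higher over the 12-array empty virus. Stimulated empty-virus arrays ran from 0.02 to 0.67 with a median of 0.45, and all 8 were above 0, against -0.53 to 0.77 with a median of -0.15 on the 12 unstimulated arrays. The ranges overlapped, and Tob1 rose 1.40-fold (0.49, SE 0.13, limma adjusted p = 0.0169). Within slide series 14 it was called (0.70, adjusted p = 0.0242) and within series 15 it was not (0.27, adjusted p = 0.561). With slides of one number, which carry the same label in both series, averaged before the fit, the Tob1 call was lost (0.49, adjusted p = 0.0574). The empty-virus slides 13 and 14 had a Tob1 mean of 0.19 ± 0.17, while 15 and 16 had 0.60 ± 0.09 (SD, n = 4 each). HDAC7 DP arrays ran from -0.06 to 0.61 with a median of 0.32 and overlapped with stimulated empty virus (-0.11, SE 0.12, adjusted p = 0.789).

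DO11.10 thymocytes had more Tob1 RNA than mhc -/- thymocytes. The 6 arrays ran from 0.82 to 1.89 with a median of 1.10, and all were above 0 in both dye orientations. Tob1 rose 2.27-fold (1.19, SE 0.12, limma adjusted p = 2.109e-04). In total thymocytes more RNA per cell and more cells of a type that expresses the gene cannot be told apart. On the same arrays 36.3% of all probes were called. Of 7 measured markers of mature single-positive thymocytes 5 were called higher and 1 lower there (summed as an array mean, 1.28 to 1.80). Of 6 markers of double-positive thymocytes 4 were lower and 0 higher (-0.79 to -0.46). Of 8 markers of thymic epithelium 5 were higher and 2 lower (0.39 to 0.88), and Xist, which female cells express, stood at 2.98 to 4.40. The part of cell composition and of the animals' sex in the Ccng2 and Tob1 differences was not tested.

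After peptide Tob1 was lower. It ran from -0.68 to -0.16 with a median of -0.41 at 3 h, below 0 on all 6 arrays, and fell 1.33-fold (-0.41, SE 0.07, limma adjusted p = 0.0247). At 6 h it ran from -0.56 to 0.09 with a median of -0.27 (mean -0.27, adjusted p = 0.149), and at 12 h from -1.30 to 0.29 with a median of -0.49 (mean -0.53, adjusted p = 0.0617). The 12 h arrays were split by dye, with a mean of -1.001 with uninjected RNA in Cy3 and -0.07 in Cy5, and the sole positive array was on slide 8 of series 13. Without the slides of series 13 Tob1 was called at 12 h (-0.71, limma adjusted p = 8.9e-04) and between 6 h and 12 h (adjusted p = 0.0300). In that setting 4067 and 2749 of all 16463 probes were called, beside 557 and 674 with all arrays, so a call there was far more common. With all arrays of each time, 2.71%, 4.57% and 3.38% of all probes were called at 3 h, 6 h and 12 h. Markers of thymic epithelium moved on the same peptide arrays, with 4 of 8 lower at 3 h, 5 of 8 at 6 h, 2 of 8 at 12 h and 0 higher (array means -0.82 to -0.60, -0.88 to -0.47 and -0.44 to 0.34). Of 6 markers of double-positive thymocytes 0, 1 and 0 were called lower at 3 h, 6 h and 12 h and 0 higher, and their array means were below 0 on every peptide array (-0.64 to -0.33, -0.58 to -0.10 and -0.75 to -0.24). Of 7 markers of mature single-positive thymocytes 1 was higher and 2 lower at 3 h, 2 higher and 3 lower at 6 h and 0 called at 12 h (array means -0.32 to 0.09, -0.34 to -0.05 and 0.12 to 0.91). Xist averaged -0.82, -1.46 and -0.94 at these times, and the part of cell composition or sex in the values of Tob1 and Btg1 was not tested.

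Cdkn1b, the gene of the kinase inhibitor p27, moved least. It rose 1.24-fold in stimulated empty-virus cells, which ran from 0.09 to 0.58 with a median of 0.20, against -0.52 to 0.25 with a median of -0.01 in the 12-array empty virus (0.31, SE 0.10, limma adjusted p = 0.0401). All 8 stimulated arrays were above 0, and the ranges overlapped. The call was lost without a dye term (adjusted p = 0.0590), within slide series 14 (0.36, adjusted p = 0.161) and within series 15 (0.25, adjusted p = 0.370). HDAC7 DP arrays ran from 0.03 to 0.90 with a median of 0.25, a log2 difference of 0.04 from stimulated empty virus (SE 0.12, adjusted p = 0.936).

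With MEF2D-VP16 Cdkn1b read 0.86, 0.52, -0.19 and 0.00, against -0.25, -0.64, -0.41 and -0.15 in the 4-array empty virus. The higher pair came from slides 21 and 22 and the lower from slides 11 and 12, and the log2 difference of 0.66 (SE 0.23, limma adjusted p = 0.101) was not called. With Nur77 Cdkn1b read -0.73, -0.54, 0.10 and 0.26 and spanned the empty-virus values (0.13, SE 0.16, adjusted p = 0.732). HDAC7-VP16 arrays ran from -0.44 to 0.08 with a median of -0.10 (log2 difference -0.08, SE 0.09, adjusted p = 0.799). Thymocytes of DO11.10 and mhc -/- animals differed by 0.01 (SE 0.05, adjusted p = 0.902), with arrays from -0.12 to 0.07, the narrowest range of any gene and group here. After peptide Cdkn1b averaged 0.11, 0.29 and 0.21 at 3 h, 6 h and 12 h, and none was called (limma adjusted p = 0.651, 0.369 and 0.342). At 6 h the slides of series 13 read 0.83 and 0.79, while the other 4 arrays lay between -0.19 and 0.17.

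The genes did not form a single pattern over the 11 group means. As a description over groups that share untreated or uninjected RNA, Btg1 and Cdkn1b were most alike (Pearson r = 0.73, Spearman rho = 0.61), followed by Btg2 and Tob1 (0.50 and 0.65). Ccng2 correlated with Btg1 at 0.36 and with Btg2 at -0.13. The probes whose 11 group means were most like those of Ccng2 were Gtpbp2 (Pearson r = 0.95), Nicn1 (0.94) and Nupr1 (0.94). Gtpbp2 stood at 0.77 with MEF2D-VP16, -0.67 in the 4-array empty virus and 0.23 in the 12-array set, which is the order of Ccng2 in these groups on a narrower scale. The order over all groups was not the same, since the lowest Gtpbp2 mean (-0.91) was not in the 4-array empty virus, where Ccng2 was lowest. Nearest to Btg1 were Fzd7 (0.96), Cend1 (0.93) and Cabs1 (0.91), nearest to Btg2 Zbtb20 (0.92), Rab12 (0.91) and Robo1 (0.91), and nearest to Tob1 Ubxn6 (0.97), Dctn3 (0.97) and Cdk5 (0.96). Nearest to Cdkn1b was Aldoc, the gene of a glycolytic enzyme (0.94), followed by Aknaos (0.93) and Cyp3a11 (0.92). Aldoc spanned far more, from -2.31 in the 4-array empty virus to 1.56 in stimulated empty-virus cells.

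Btg3, a further BTG family gene, rose in stimulated empty-virus cells (1.41, SE 0.14, limma adjusted p = 5.402e-07) and with HDAC7-VP16 (0.64, adjusted p = 0.00404), and it fell with MEF2D-VP16 (-1.34, adjusted p = 0.00295) and Nur77 (-0.85, adjusted p = 0.00319). Its direction with MEF2D-VP16 and Nur77 was thus opposite to that of Btg1. Of the 14 measured genes of the BTG/TOB family and the CCR4-NOT deadenylase outside the 5 genes, 1 rose and 4 fell with MEF2D-VP16 (median -0.03, beside a median of 0.00 over all probes and 12.6% of them called), and 0 rose and 2 fell with Nur77 (median -0.15, beside -0.01 and 6.91%). In stimulated empty-virus cells 3 rose and 3 fell, beside 12.5% of all probes called. In DO11.10 over mhc -/- thymocytes 5 rose and 1 fell, which is near the 36.3% of all probes called there, with the deadenylase subunit genes Cnot6l (1.40, adjusted p = 8.869e-06) and Cnot9 (0.93, adjusted p = 1.675e-05) highest. After peptide 0 of 14 was called at 3 h, Cnot8 fell at 6 h (-0.26, adjusted p = 0.0388) and Cnot2 at 12 h (-0.39, adjusted p = 0.0402).

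Among 9 relatives of Ccng2 and of Cdkn1b, cyclin-dependent kinase inhibitors and cyclins G1 and I, Cdkn1a was called in hybridoma cells and in thymocytes. Cdkn1a, the gene of the p53-linked inhibitor p21, rose in stimulated empty-virus cells (1.41, SE 0.12, limma adjusted p = 1.2e-07) and after peptide by 1.24 at 3 h, 1.12 at 6 h and 0.78 at 12 h (adjusted p = 0.00338, 3.579e-04 and 0.0395). It was lower with Nur77 than in its empty-virus control (-0.57, adjusted p = 0.0164) and fell in DO11.10 over mhc -/- thymocytes (-1.64, adjusted p = 3.08e-06). The empty virus used as control for Nur77 itself stood above untreated cells for Cdkn1a (0.51, limma adjusted p = 0.0108). The larger empty-virus set did so too (0.43, limma adjusted p = 0.00231). The Nur77 difference is thus relative to a raised control, and the Cdkn1a value of Nur77 against untreated cells is not given here. With MEF2D-VP16 the inhibitor gene Cdkn2d (0.89, adjusted p = 0.00110) and the cyclin gene Ccni (0.96, adjusted p = 0.0257) rose, 0 of the 9 fell and the median was 0.33, beside 12.6% of all probes called. In DO11.10 over mhc -/- thymocytes 1 of 9 rose, Ccni (3.39, adjusted p = 3.72e-06), and 6 fell, beside 36.3% of all probes called. Of 9 genes that govern turnover of p27 protein, 0 was called with MEF2D-VP16 (12.6% of all probes). In stimulated empty-virus cells 1 rose and 2 fell (12.5%), and in DO11.10 over mhc -/- thymocytes 3 rose and 3 fell (36.3%). After peptide 0 rose and 1 fell at 6 h (4.57%) and at 12 h (3.38%). The F-box gene Skp2 was among those that fell, at -1.11 in stimulated cells, -0.81 in DO11.10 over mhc -/- thymocytes, -0.43 at 6 h and -0.76 at 12 h.

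Klf2, a transcription factor that keeps T cells resting, rose with MEF2D-VP16 over the 4-array empty virus (2.47, SE 0.26, limma adjusted p = 4.195e-04) and fell with HDAC7-VP16 over the 12-array set (-1.28, adjusted p = 0.0245). It also differed between the controls, at -1.59 in the 4-array over the 12-array empty virus (adjusted p = 0.0293), the direction Ccng2 had there. Of 17 quiescence factors 4 rose and 1 fell with MEF2D-VP16 (median 0.08), 1 rose and 3 fell with Nur77 (median 0.01), and 2 rose and 1 fell in stimulated empty-virus cells (median 0.06). Over all probes 12.6%, 6.91% and 12.5% were called in these 3 comparisons, in that order. With Nur77 Foxo1 rose (1.204, adjusted p = 7.994e-04) and Foxp1, another forkhead gene, fell (-1.57, adjusted p = 1.27e-05). Of 15 FoxO-regulated genes 6 rose and 1 fell with MEF2D-VP16 (median 0.44), with the mitophagy gene Bnip3 (2.54, adjusted p = 3.007e-06) and the PI3 kinase inhibitor gene Pik3ip1 (2.00, adjusted p = 6.296e-05) highest, and 4 rose and 0 fell with Nur77 (median 0.41), beside 12.6% and 6.91% of all probes called. Bnip3 and Pik3ip1 too were lower in the 4-array than in the 12-array empty virus (-2.73 and -0.73, adjusted p = 2.4e-08 and 0.00292), and Bnip3 was lower with HDAC7-VP16 (-2.03, adjusted p = 8.781e-04).

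In thymocytes the lists share genes with the maturation markers. In DO11.10 over mhc -/- thymocytes 3 of 17 quiescence factors rose and 4 fell, beside 36.3% of all probes called, with Slfn1 (1.95, limma adjusted p = 3.25e-06) and Klf2 (1.74, adjusted p = 1.267e-06) highest, both of which are also on the list of mature single-positive markers. Of 15 FoxO-regulated genes 7 rose and 2 fell there, with the repressor gene Bcl6 (3.28) and the autophagy gene Map1lc3b (2.33) highest, where 36.3% of all probes were called. After peptide Klf3 fell at 3 h, 6 h and 12 h (-0.89, -0.96 and -0.85, adjusted p = 0.0179, 9.877e-04 and 0.00836), and Klf2 fell at 3 h and 6 h (-0.63 and -0.60). Bcl2l11, the gene of the proapoptotic protein BIM, rose at 3 h (1.23, adjusted p = 0.00101) and 12 h (0.85, adjusted p = 0.00675).

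Proliferation genes fell more often than they rose with MEF2D-VP16, where Btg1 and Tob1 were both called higher. The same held in comparisons without that joint rise, namely Nur77, stimulation, DO11.10 over mhc -/- thymocytes, and peptide at 6 h and 12 h. With MEF2D-VP16 10 of 25 fell and 1 rose (median -0.31, beside a median of 0.00 over all probes and 12.6% of them called), with the S-phase cyclin gene Ccne1 (-1.68, SE 0.23, limma adjusted p = 0.00155) and the replication helicase gene Mcm5 (-1.48, SE 0.11, adjusted p = 6.419e-05) lowest. Ccne1 was itself called higher in the 4-array empty virus over untreated cells (0.64, limma adjusted p = 0.0126). Its fall is thus relative to a raised control. With Nur77 4 fell, among them the G1 kinase gene Cdk6 (-0.86) and the cyclin gene Ccnd2 (-0.75), and 0 rose (median -0.05), beside 6.91% of all probes called. In stimulated empty-virus cells 5 fell and 2 rose (median -0.32, 12.5% of all probes called), with Ccne2 (-2.03, adjusted p = 0.00284) lowest, and with HDAC7-VP16 0 of 25 was called (median -0.10, 2.72% of all probes called). In the thymus 10 fell and 3 rose in DO11.10 over mhc -/- animals, beside 36.3% of all probes called, with Cdk4 (2.76) and Cdk2 (2.75) highest. After peptide 2 fell and 2 rose at 3 h, 5 fell and 1 rose at 6 h, and 7 fell and 1 rose at 12 h (2.71%, 4.57% and 3.38% of all probes called), with Myc (1.13, adjusted p = 0.00201) highest at 3 h and the topoisomerase gene Top2a (-0.71, adjusted p = 0.0231) the lowest called at 12 h.

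**Figure D5:**
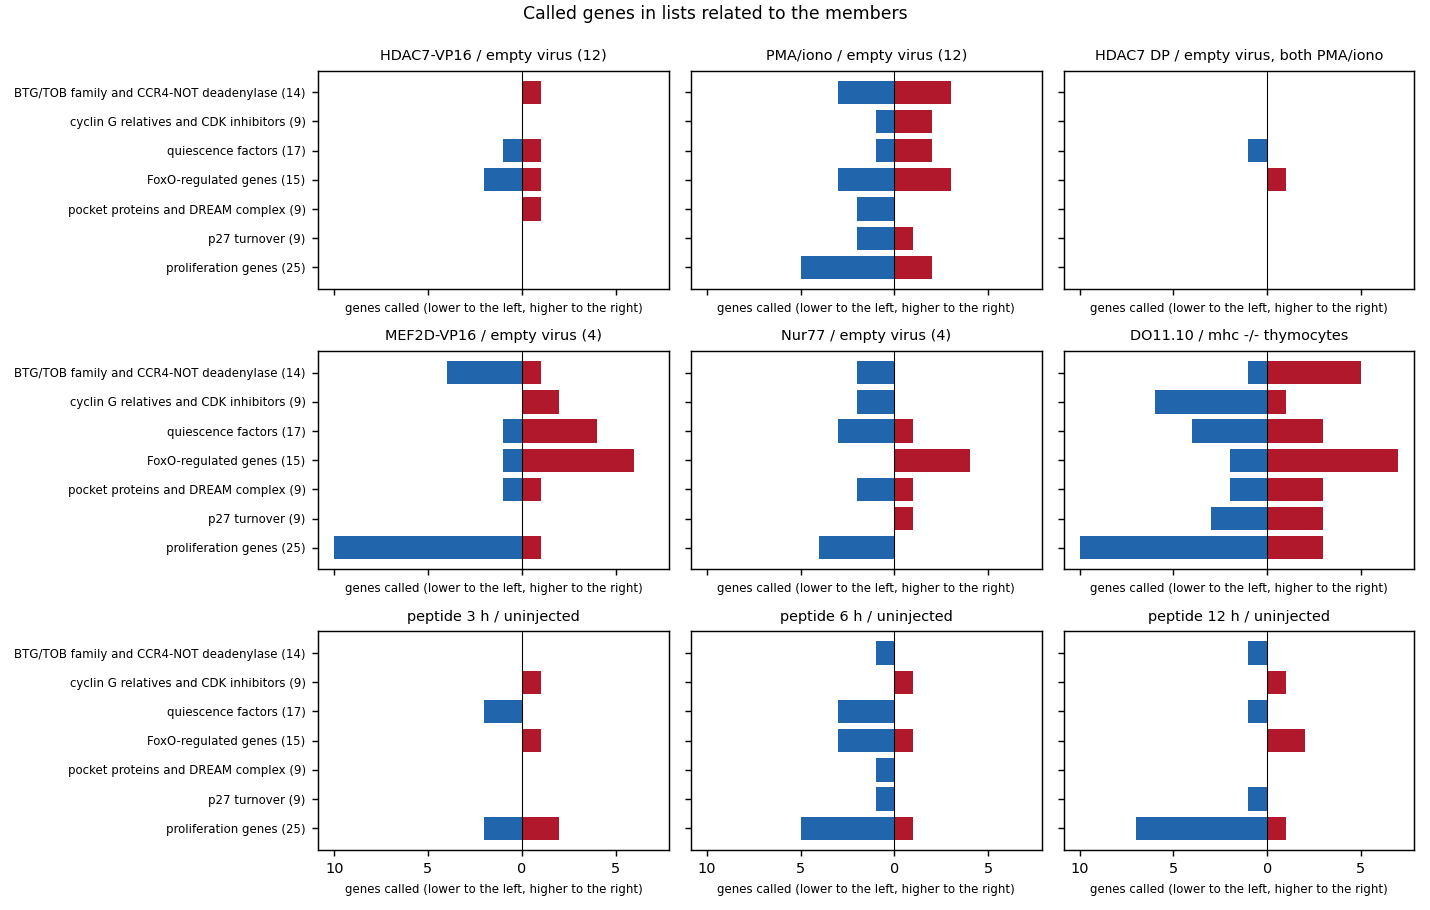
Number of genes called by limma in 7 lists (vertical axis, with the number measured in brackets) in 9 comparisons (panels), with genes called lower as blue bars to the left and genes called higher as red bars to the right (horizontal axis, counts). The longest bars are the 10 proliferation genes called lower with MEF2D-VP16 and in DO11.10 over mhc -/- thymocytes.

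The pocket protein Rbl2, a partner of E2F factors in resting cells, was called in each hybridoma comparison with a construct or stimulus except that of HDAC7 DP. Of 9 genes of pocket proteins and the DREAM complex 1 rose and 1 fell with MEF2D-VP16, beside 12.6% of all probes called. These were Rbl2 (0.80, limma adjusted p = 0.00224) and the proliferation-linked Mybl2 (-1.33, adjusted p = 6.079e-04). Nur77 gave the same for both, at 0.79 and -0.93 (adjusted p = 0.00154 and 0.00160). With Nur77 1 of the 9 rose and 2 fell, beside 6.91% of all probes called. In stimulated empty-virus cells 0 rose and 2 fell, beside 12.5% of all probes called. There Rbl2 fell (-0.96, adjusted p = 5.594e-04), and the pocket protein gene Rbl1 fell further (-1.83, adjusted p = 0.00230). With HDAC7-VP16 1 rose, Rbl2 (0.50, adjusted p = 0.0254), and 0 fell, beside 2.72% of all probes called. MEF2D-VP16 and Nur77 share the 4-array empty virus as control, and HDAC7-VP16 and stimulated cells share the 12-array set, so that values within each pair are not independent.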

How the data were processed

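RNA of 74 mouse samples was compared with a second RNA on 2-colour arrays. The authors deposited a log ratio per probe and array, whose log base, background correction and normalization are not stated. The deposited ratios are read here as log2, an assumption on which every fold change rests. Dye-swapped arrays were used in the direction deposited and with the dye labels of the titles, which are not settled for 2 empty-virus arrays. Probes were named through the platform annotation: of 16463, 14551 had 1 symbol, 6 several and 1906 none. Each array was centred on its median (-0.021 to 0.023 as deposited). Groups followed the labels. Each comparison was fitted with limma 3.58.1 in R 4.3.3 with dye orientation as a covariate, p-values were Benjamini-Hochberg adjusted over all probes, and no filter was applied. The fits were tested on simulated data. The 5 genes and all gene lists were chosen with earlier results of these data known. Named genes were the 5 genes, for each the 3 probes with the most similar group means, and from each list at most 2 called genes with the largest change per comparison. Alternatives varied the dye term, centring, control arrays, slide series, slide averaging, array signs and single arrays. Replicate numbers follow accession order and only name arrays. The number of arrays limits the precision.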

Additional observations from a re-analysis of the deposited data

Results flagged for a closer look

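Of 50 pairs of a gene and a group of 4 to 10 arrays, 2 held an array far from the others by Dixon's criterion, and chance gives about 1 in 20. Btg2 at 6 h after peptide read -1.176 in replicate 1, and the nearest of the other arrays read -0.169. Cdkn1b at 12 h after peptide read 0.745 in replicate 2, and the nearest of the other arrays read 0.23. Both arrays were on slides of series 13. Ccng2 lay below 0 on every array of the 4-array empty virus and above 0 on every array of the 12-array empty virus, a log2 difference of -3.054 that was not tested.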

How the results depend on the processing

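Of 442 recomputed values of the 5 genes under the alternatives, 415 kept their side of the threshold or, for untested Ccng2 values, moved by less than 1 SD. Of the rest, 9 lost and 7 gained a call, and 8 moved further. A turn of direction was counted for 3, only where a fit called the gene or the Ccng2 value was at least 1 SD. Turns between uncalled values are among the 415, such as Btg1 with HDAC7 DP (-0.3381, but 0.3096 against untreated cells). The 3 values counted as turned were Ccng2 with Nur77 (-1.408 against all 16 empty-virus arrays, -1.347 against untreated cells) and Tob1 with HDAC7 DP (0.2827 against untreated cells). Counts of called probes moved by over 1.5 times in these cases. With HDAC7-VP16 they were 7 in series 14, 703 in series 15, 284 without a dye term and 238 against all 16 empty-virus arrays, beside 447, and with stimulation they were 781 in series 14 and 745 in series 15, beside 2057. For HDAC7 DP the count was 3234 against untreated cells, 27 in series 15, 101 with slides of one number averaged and 0 with slide pairs averaged (622 at an unadjusted p under 0.05 in limma), beside 271; the last alternative was chosen after seeing the data and leaves fewer samples. For Nur77 it was 365 without a dye term, 2167 against untreated cells and 677 to 1255 leaving out 1 array, lowest without replicate 1 of the 4-array set (677) or its replicate 3 (695), beside 1138. Between the empty-virus sets it was 241 to 267 leaving out 1 array of the smaller set, beside 416. The 12-array set over untreated cells gave 41 in series 14, 189 in series 15 and 0 with the signs of replicates 3 and 9 turned (1376 at an unadjusted p under 0.05), beside 325. The 4-array set over untreated cells gave 20 without a dye term and 347 to 448 leaving out 1 array, beside 942. Without slides of series 13 the counts were 1906 at 6 h, 4067 at 12 h and 2749 between 6 h and 12 h, beside 753, 557 and 674. The cause was not tested in any of these. No paired analysis was possible because replicate numbers follow accession order and only name arrays. Slide series as a block, fitted in 4 comparisons, changed no call of the genes other than Ccng2. Probe background signals were not used here, so dim probes could not be told from bright ones.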
